A study of Mus musculus with 11 samples.

Results

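Dbp, Tef and Hlf encode the PAR bZIP transcription factors, and Nfil3 encodes a related bZIP repressor. These 4 genes, of 21899 listed for the mouse airway, were chosen by their place in the circadian clock, with the difference between the GGsTop and vehicle groups already known for some of them. The values of that comparison are therefore given as a description with no test. All 4 passed the filter on low values, a mean of 0.5 FPKM or more, as did 14004 genes in all. FPKM are fragments scaled to the exon length of the gene and to the total of the library, so levels given in FPKM can be set side by side between genes.

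The airway RNA of wild-type, male BALB/c mice was sequenced in 11 libraries, 3 for the PBS group and 4 each for the OVA/LPS/Vehicle and OVA/LPS/GGsTop groups. PBS mice were not sensitised and received PBS only. Mice of both OVA/LPS groups were sensitised to ovalbumin (OVA) with alum, challenged with OVA through the nose and then given lipopolysaccharide (LPS), as a model of asthma exacerbation. By the methods, they received vehicle or GGsTop, an inhibitor of γ-glutamyl transferase, into the trachea from the day of the last LPS dose. The vehicle group therefore carries the sensitisation, both challenges and the instillation. Libraries of the OVA/LPS/Vehicle group carry the numbers 12, 34, 56 and 78, with no statement whether mice were pooled. Where libraries do not come from separate mice, p-values measure only the spread between these libraries. The labels name the tissue trachea, whereas the methods describe bluntly dissected airway with the trachea removed. The hour at which tissue was taken is not given in the sources used here, so an effect of treatment and an effect of the hour of collection cannot be told apart for genes that follow the clock.

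The total of fragments implied by the FPKM was between 14513136 and 18632382 per library. Markers of club cells summed to 32900 FPKM or more in each library, and cartilage markers to between 0.256 and 55.7 FPKM. Markers of cardiac muscle, which lines the large veins of the mouse lung, summed to 8.6, 1330 and 48.9 FPKM in PBS 1, 2 and 3, to between 646 and 1100 with OVA/LPS/Vehicle and to between 386 and 1850 with OVA/LPS/GGsTop. The thyroid markers summed to 92.9, 176 and 315 FPKM in OVA/LPS/Vehicle 12, 34 and 56 and to at most 1.68 FPKM in the other libraries. PBS 3 stood apart in GC content, with a slope of 0.533 log2 per 10 GC points against 0.0611 and 0.0484 in the other PBS libraries. The slopes were −0.261 to −0.19 in the OVA/LPS/Vehicle group and 0.0464 to 0.108 in the OVA/LPS/GGsTop group. The GC content of the longest transcript was 61.6% for Dbp, 54.5% for Nfil3, 53.1% for Tef and 45.1% for Hlf, beside a median of 49.9% over the genes tested. In whole tissue, fewer cells of a type and less RNA per cell cannot be told apart.

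The core clock is a loop in which BMAL1 (Arntl) with CLOCK or NPAS2 drives genes through E-boxes, among them the period genes, the cryptochromes and the REV-ERB repressors (Nr1d1, Nr1d2), which in turn hold the activators down. Dbp, Tef and Hlf are outputs of this loop, and their proteins activate genes that carry a D-box. NFIL3 binds the same D-box and represses it, and Nfil3 itself is under REV-ERB and ROR control, so the activators and the repressor peak at opposite phases in many tissues. Nfil3 is also known as a cytokine-induced factor that is needed for natural killer and innate lymphoid cells.

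The sequences upstream of the start sites are shown because 3 of these genes differed together and clock factors are known to act through motifs of the kinds searched. They are the last 150 bases before the RefSeq start sites on GRCm38.p6, in the direction of transcription and ending next to the start, with matches to 4 motifs in capitals.
Tef, start site 1, chr15:81802523-81802672, plus strand: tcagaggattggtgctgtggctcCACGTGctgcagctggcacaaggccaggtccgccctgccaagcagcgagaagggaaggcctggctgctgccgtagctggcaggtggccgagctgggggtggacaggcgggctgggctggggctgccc
Tef, start site 2, chr15:81811264-81811413, plus strand: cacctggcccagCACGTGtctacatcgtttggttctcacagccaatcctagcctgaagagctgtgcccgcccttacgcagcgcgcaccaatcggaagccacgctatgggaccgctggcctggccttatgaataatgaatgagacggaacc
Dbp, chr7:45705097-45705246, plus strand: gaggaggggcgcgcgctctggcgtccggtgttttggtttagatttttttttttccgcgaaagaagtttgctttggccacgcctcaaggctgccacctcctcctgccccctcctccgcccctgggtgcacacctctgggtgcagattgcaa
Hlf, chr11:90390918-90391067, minus strand: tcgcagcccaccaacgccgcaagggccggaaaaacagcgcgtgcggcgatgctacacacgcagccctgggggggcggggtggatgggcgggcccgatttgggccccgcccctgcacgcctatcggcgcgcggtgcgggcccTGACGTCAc
Nfil3, chr13:52981040-52981189, minus strand: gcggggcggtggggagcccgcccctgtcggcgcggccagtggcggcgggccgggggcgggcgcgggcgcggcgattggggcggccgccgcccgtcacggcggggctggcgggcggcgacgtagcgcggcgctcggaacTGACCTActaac
Windows of 250 bases before each start site were searched on both strands for the E-box CACGTG, the D-box TTANGTAA, the ROR element TAGGTCA and the cAMP element TGACGTCA, which do not overlap each other in these windows. Both Tef windows held an E-box, beginning 127 and 138 bases before the start site, and 6.02% of the 32851 windows of the same length did. The Hlf window held the cAMP element, beginning 9 bases before the start, a motif found in 1.55% of windows. The Nfil3 window held the ROR element on the opposite strand, printed as TGACCTA, beginning 12 bases before the start, and 2.23% of windows did. The D-box, present in 2.06% of windows, was not matched in the 5 windows of the 4 genes, and the Dbp window held none of the 4 motifs. The windows were rich in GC, from 60.4% at the second Tef start to 81.6% for Nfil3, beside a median of 52.4%.

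In the GGsTop-treated airway the 3 activators stood above the vehicle group in every library, and Nfil3 did not. Dbp (ENSMUSG00000059824) was at 27.0, 17.3, 21.3 and 16.9 FPKM in OVA/LPS/GGsTop 1 to 4. It was at 3.15, 5.05, 5.30 and 3.18 FPKM in OVA/LPS/Vehicle 12, 34, 56 and 78. Every GGsTop library was above every vehicle library, and within the GGsTop group libraries 1 and 3 were the higher ones. The group means were 20.7 ± 4.71 (SD, n = 4) and 4.17 ± 1.17 (SD, n = 4) FPKM, a ratio of 4.95, and the fitted log2 difference on the log2(FPKM + 1) scale was 2.07 (SE 0.26). Of the genes tested, 1 had a larger fitted difference in this comparison, the predicted gene Gm17720 at 2.22 (SE 0.63), which is named because its rank was seen.

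Tef (ENSMUSG00000022389), the activator with the highest FPKM in every library, was at 54.3, 36.7, 46.5 and 41.7 FPKM in OVA/LPS/GGsTop 1 to 4. The OVA/LPS/Vehicle libraries 12, 34, 56 and 78 lay close together at 16.5, 17.6, 16.8 and 17.7 FPKM. As with Dbp, libraries 1 and 3 were the higher ones of the GGsTop group, and the groups did not overlap. The means were 44.8 ± 7.52 and 17.2 ± 0.615 FPKM (SD, n = 4 each), a ratio of 2.61, with a log2 difference of 1.32 (SE 0.12), and 9 genes had a larger one.

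Hlf (ENSMUSG00000003949), the least abundant activator in the GGsTop group, was at 5.01, 4.54, 4.27 and 5.93 FPKM in OVA/LPS/GGsTop 1 to 4 and at 2.26, 2.64, 2.44 and 2.97 FPKM in OVA/LPS/Vehicle 12, 34, 56 and 78. The groups did not overlap, but here library 4 was the highest of the GGsTop group. The means were 4.94 ± 0.728 and 2.58 ± 0.306 FPKM (SD, n = 4 each), a ratio of 1.91, with a log2 difference of 0.73 (SE 0.21), and 176 genes had a larger one. Each of these values rests on 234 to 586 fragments.

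Nfil3 (ENSMUSG00000056749), the repressor, was at 5.97, 8.77, 4.85 and 12.6 FPKM in OVA/LPS/GGsTop 1 to 4 and at 9.20, 8.49, 10.9 and 12.4 FPKM in OVA/LPS/Vehicle 12, 34, 56 and 78. Libraries 1 and 3 of the GGsTop group, where Dbp and Tef were highest, were the lowest of all 11 libraries for Nfil3, while library 4 was above every vehicle library. The means were 8.04 ± 3.44 and 10.3 ± 1.75 FPKM (SD, n = 4 each), a ratio of 0.784, with a log2 difference of −0.38 (SE 0.23) and overlapping groups. The summed markers of 6 tissues had the same order as Nfil3 in the GGsTop group, cardiac muscle at 650, 1670, 386 and 1850 FPKM in libraries 1 to 4, smooth muscle at 552, 570, 417 and 1040 FPKM, and likewise basal cells, cartilage, fat and skeletal muscle. Endothelial markers had the opposite order, at 929, 726, 956 and 428 FPKM. The part of these in the spread of Nfil3 was not tested.

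Over all genes tested, 6.9% were higher and 1.81% lower in the GGsTop than in the vehicle group at an adjusted p under 0.05, and 17.3% stood higher with no overlap of the groups, as Dbp, Tef and Hlf did. Since this comparison was known when the genes were chosen, nothing is read from their count. After correction for GC content the log2 differences were 1.79 for Dbp, 1.2 for Tef, 0.88 for Hlf and −0.55 for Nfil3. Mitochondrial genes held 14.5% to 19.5% of the FPKM in the vehicle libraries and 7.4% to 11.1% in the GGsTop libraries, and with these genes removed the differences were 2.0, 1.21, 0.65 and −0.49. Fat markers summed to 126 to 511 FPKM in the vehicle group and 9.28 to 112 FPKM in the GGsTop group, and their part in the differences was not tested.

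**Figure D1:**
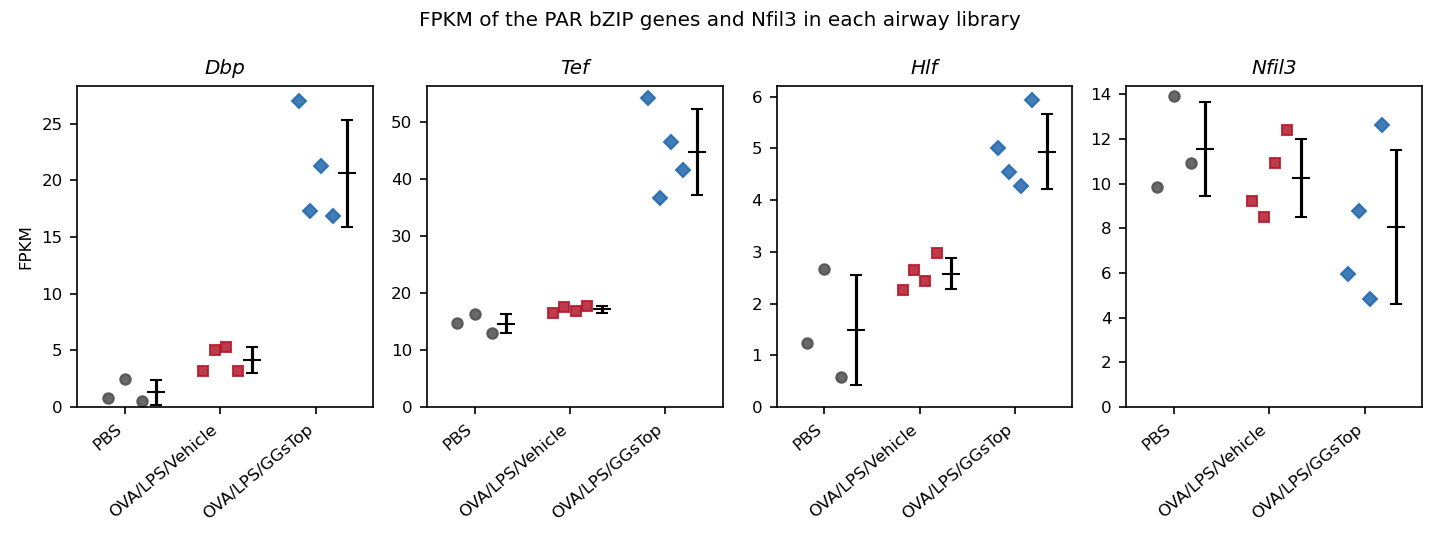
FPKM of Dbp, Tef, Hlf and Nfil3 in each library, with a separate axis from 0 for each gene. Points are libraries of the PBS (circles, n = 3), OVA/LPS/Vehicle (squares, n = 4) and OVA/LPS/GGsTop (diamonds, n = 4) groups, and bars are the mean ± SD. The GGsTop libraries sit above all others for Dbp (16.9 to 27.0 FPKM), Tef (36.7 to 54.3) and Hlf (4.27 to 5.93), and the groups overlap for Nfil3.

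The comparison of OVA/LPS/Vehicle with PBS asks what the challenge with vehicle changed. It shares the vehicle libraries with the comparison that was known when the genes were chosen. Here Dbp was higher in the challenged airway, while Tef, Hlf and Nfil3 did not pass the test. Of the genes tested, 15.9% were called higher and 22.1% lower in this comparison, and 18.7% stood higher with no overlap, so 1 gene of 4 called and 2 of 4 not overlapping stand against a high background.

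Dbp was at 0.821, 2.52 and 0.538 FPKM in PBS 1, 2 and 3, from 30 to 117 fragments. All 3 values were below the lowest vehicle library, and PBS 2 was well above the other PBS libraries. The mean of 4.17 FPKM in the vehicle group was 3.22 times the PBS mean of 1.29 ± 1.07 FPKM (SD, n = 3), with a log2 difference of 1.24 (SE 0.28, limma adjusted p = 0.00821). The difference was 1.60 without PBS 2 and 1.0 without PBS 3, with adjusted p = 0.0011 and 0.0377, and adjusted p was between 0.000272 and 0.0377 over all alternatives. The ratio of means was 6.14 without PBS 2, and voom with size factors gave a log2 difference of 2.0. Within the vehicle group Dbp was higher in libraries 34 and 56, which also had the most thyroid marker RNA, 176 and 315 FPKM against 92.9 and 0.788 in 12 and 78, and the part of this in the result was not tested.

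Tef was at 14.7, 16.3 and 13.0 FPKM in PBS 1, 2 and 3, just under the lowest vehicle value of 16.5, so that the groups did not overlap. The log2 difference was 0.22 (SE 0.13) and did not pass the test (limma adjusted p = 0.196).

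Hlf was at 1.24, 2.66 and 0.586 FPKM in PBS 1, 2 and 3, and PBS 2 lay within the vehicle group. The log2 difference of 0.60 (SE 0.23) missed the threshold (limma adjusted p = 0.0549). Without PBS 2 it was 0.92 and passed, with adjusted p = 0.00226, and without PBS 3 it was 0.32, with adjusted p between 0.000947 and 0.241 over all alternatives. PBS 2 was the highest PBS library for all 4 genes. It was also the highest for the markers of cardiac muscle, smooth muscle, cartilage, basal cells, fibroblasts, fat and skeletal muscle, at 1330 against 8.6 and 48.9 FPKM for cardiac muscle and 30.9 against 2.53 and 1.76 FPKM for basal cells, and the lowest for endothelial markers. The part of this in the values of the 4 genes was not tested. Ciliated cell markers were called higher in the vehicle group for 4 of 5 genes, beside 15.9% of all genes tested. Their sums overlapped, at 330 to 414 against 273 to 388 FPKM. Endothelial markers were called lower for 4 of 5, beside 22.1% of all genes tested, with sums of 577 to 727 against 804 to 1530 FPKM. Alveolar markers also summed lower without overlap, at 4910 to 8210 against 9360 to 14400 FPKM, as did smooth muscle markers, at 439 to 475 against 519 to 702 FPKM. Fat markers summed higher without overlap, at 126 to 511 against 15.5 to 125 FPKM. The part of any of these in the values of the 4 genes was not tested.

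Nfil3 was at 9.83, 13.9 and 10.9 FPKM in PBS 1, 2 and 3, and the groups overlapped. The log2 difference of −0.16 (SE 0.25) did not pass the test (limma adjusted p = 0.637), and its sign changed with the GC correction, to 0.09.

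Between OVA/LPS/GGsTop and PBS, all 3 activators were higher in the GGsTop-treated airway with no overlap, and Nfil3 did not pass the test. This comparison shares its GGsTop libraries with the first. Of the genes tested, 2.06% were called higher and 0.821% lower, and 7.22% stood higher with no overlap. Against this background 3 of the 4 genes were called higher and none lower, in a set that was chosen with the GGsTop libraries known. Dbp was 16.0 times its PBS mean, with a log2 difference of 3.31 (SE 0.28, limma adjusted p = 0.000266), and 10 genes had a larger difference. Without PBS 2 the ratio of means was 30.4, and voom on the recovered fragments gave a log2 difference of 4.31. Tef was 3.05 times its PBS mean, at 1.54 (SE 0.13, limma adjusted p = 0.000266). Both were called under each of the 21 alternatives, with adjusted p of at most 0.022 and 0.0259. Ciliated cell markers were called higher in the GGsTop group for 3 of 5 genes. Club cell markers summed to 44500 to 51100 against 32900 to 39200 FPKM in PBS, and B cell markers to 32.3 to 62.7 against 94.3 to 102 FPKM, both without overlap. limma called no gene of these 2 lists, of which 2 club and 4 B cell genes had an unadjusted p under 0.05. The share of all genes at that unadjusted threshold was not taken, so nothing is read from these 2 counts. Eosinophil markers summed to 10.4 to 16.3 against 7.1 to 8.79 FPKM, and macrophage markers to 114 to 167 against 78.8 to 111 FPKM. Markers of natural killer and innate lymphoid cells summed to 5.75 to 6.61 against 6.88 to 9.11 FPKM. These sums did not overlap either. The part of these in the values of the 4 genes was not tested.

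Hlf was 3.3 times its PBS mean, or 5.4 times without PBS 2, with a log2 difference of 1.33 (SE 0.23, limma adjusted p = 0.016). With the shared replicate numbers of the 2 groups as a block the difference was 1.25 and the call was lost (limma adjusted p = 0.0597). It was also lost without PBS 1 (1.29, adjusted p = 0.0859), PBS 3 (1.04, 0.0543) or OVA/LPS/GGsTop 1 (1.32, 0.055), and adjusted p ran from 0.000364 to 0.0958 over all alternatives. Nfil3 was 0.697 times its PBS mean, at −0.54 (SE 0.25, limma adjusted p = 0.256). It passed in the block fit with the GC correction, at −0.67 (limma adjusted p = 0.031), with a range of 0.031 to 0.423 over all alternatives. OVA/LPS/GGsTop 4 has no PBS library of its number, so the block fits leave it out of the difference, for Hlf as well. That library held the most Nfil3 of the GGsTop group, at 12.6 FPKM.

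**Figure D2:**
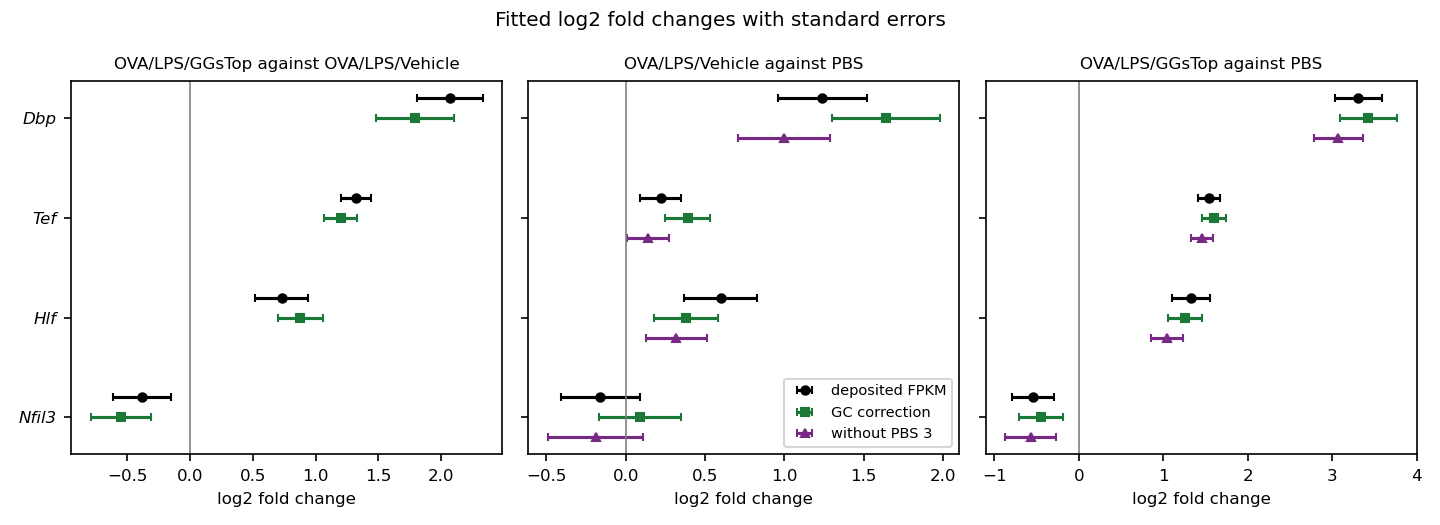
Log2 differences between groups on the log2(FPKM + 1) scale, with bars of 1 SE, in the 3 comparisons, for the deposited FPKM (circles), after GC correction (squares) and, in the comparisons with PBS, without PBS 3 (triangles). Horizontal axes differ between panels. Dbp stood at 2.07, 1.24 and 3.31, and Nfil3 lay below 0 on the deposited FPKM in each panel and at 0.09 after GC correction in the middle one.

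Because the proteins of activators and repressor compete for the D-box, the ratio of their FPKM was also taken within each library. There it does not depend on the scaling of that library. It compares RNA levels in whole tissue and does not measure binding at the D-box. The GC slopes differed between libraries and the genes differ in GC content, and the ratios were not corrected for this. Dbp exceeded Nfil3 in all 4 OVA/LPS/GGsTop libraries, at 1.35 to 4.53 times its FPKM, and stayed below it in the other 7. The ratio was 0.257 to 0.595 in the OVA/LPS/Vehicle group and 0.0494 to 0.181 in the PBS group, so the 3 groups did not overlap. Tef exceeded Nfil3 in all 11 libraries, 1.17 to 1.49 times in PBS, 1.43 to 2.08 times in OVA/LPS/Vehicle and 3.31 to 9.58 times in OVA/LPS/GGsTop. Hlf stayed below Nfil3 throughout, at 0.0539 to 0.192, 0.223 to 0.311 and 0.471 to 0.88 times.

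The summed FPKM of the 3 activators was 1.70, 1.55 and 1.3 times Nfil3 in PBS 1, 2 and 3. It was 2.38, 2.98, 2.24 and 1.93 times in OVA/LPS/Vehicle 12, 34, 56 and 78, and 14.5, 6.67, 14.9 and 5.13 times in OVA/LPS/GGsTop 1 to 4. The 3 groups did not overlap, and OVA/LPS/GGsTop 1 and 3, the libraries with the least Nfil3, had the highest values. The make-up of the sum differed too. Tef gave 75.9% to 92.1% of it in PBS, 68.4% to 75.3% in OVA/LPS/Vehicle and 62.7% to 64.6% in OVA/LPS/GGsTop. Dbp gave 3.8% to 11.7%, 13.3% to 21.6% and 26.2% to 31.3% in the same order, while the share of Hlf was 4.14% to 12.5% over all libraries. These ratios use the values that chose the genes and are given with no test.

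**Figure D3:**
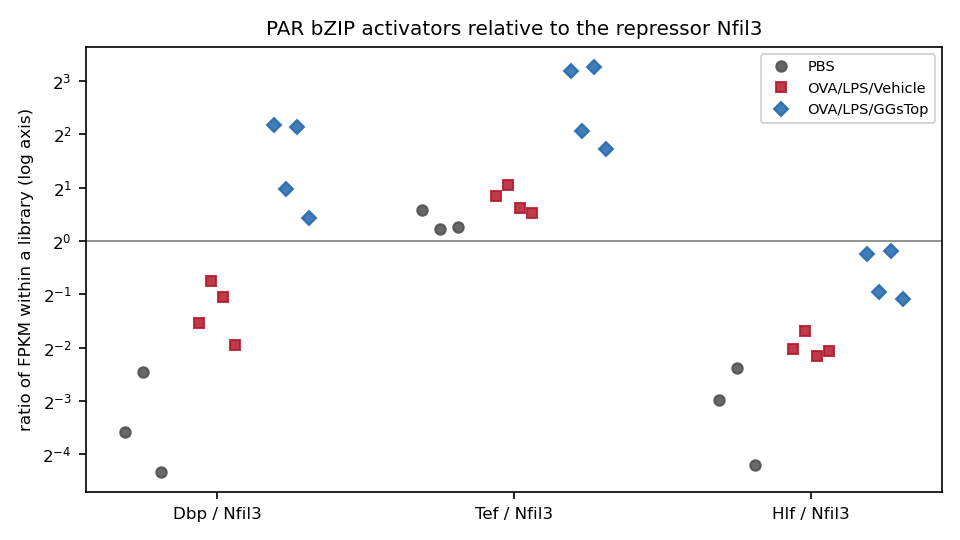
Ratio of the FPKM of Dbp, Tef and Hlf to that of Nfil3 within each library, on a log axis of base 2. Circles are PBS, squares OVA/LPS/Vehicle and diamonds OVA/LPS/GGsTop libraries, and the grey line marks equal FPKM. Dbp lies above the line only in the GGsTop libraries, at 1.35 to 4.53.

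Across the 11 libraries, each gene's log2(FPKM + 1) was standardised and compared with 12991 genes of a mean of at least 1 FPKM by the root mean square difference, which is 0 for the same profile and 2.0 for its mirror image. These points share libraries, depth and the GC slopes above. They include the GGsTop and vehicle libraries whose difference was known when the genes were chosen. The distances to other genes are therefore a description with no test, and not independent support. Dbp and Tef differed from each other by 0.305, Dbp and Hlf by 0.386 and Tef and Hlf by 0.531. Nfil3 lay far from all 3 activators, at 1.78 from Dbp, 1.8 from Tef and 1.62 from Hlf, beside a median of 1.4 between Dbp and all genes. The profiles most like Tef were those of Per3 (0.144), Per2 (0.237), Cipc (0.273), Aoc2 (0.322) and Slc23a2 (0.338). Per3 and Per2 are period genes, Cipc encodes a repressor that binds CLOCK, Aoc2 an amine oxidase and Slc23a2 a vitamin C transporter. The profiles most like Dbp were those of Per3 (0.231), Cipc (0.317), Slc23a2 (0.34), Per2 (0.38) and Alas1 (0.382), the last encoding the first enzyme of haem synthesis.

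The profiles most like Hlf were those of Appl2 (0.269), Gpr155 (0.28), Gm867 (0.291), Nr1d2 (0.327) and Hspa1a (0.334), of which Nr1d2 is a core clock gene and Hspa1a encodes a heat shock protein. Those most like Nfil3 were less close, at 0.51 for Col5a3, a collagen gene, 0.548 for Cd320, 0.576 for the mast cell protease gene Cma1, 0.582 for Exoc4 and 0.584 for Rrad. The core clock activators Npas2 and Arntl differed from Nfil3 by 0.705 and 0.818. At the other end Arntl differed from Dbp by 1.99 and from Tef by 1.98, close to a mirror image.

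**Figure D4:**
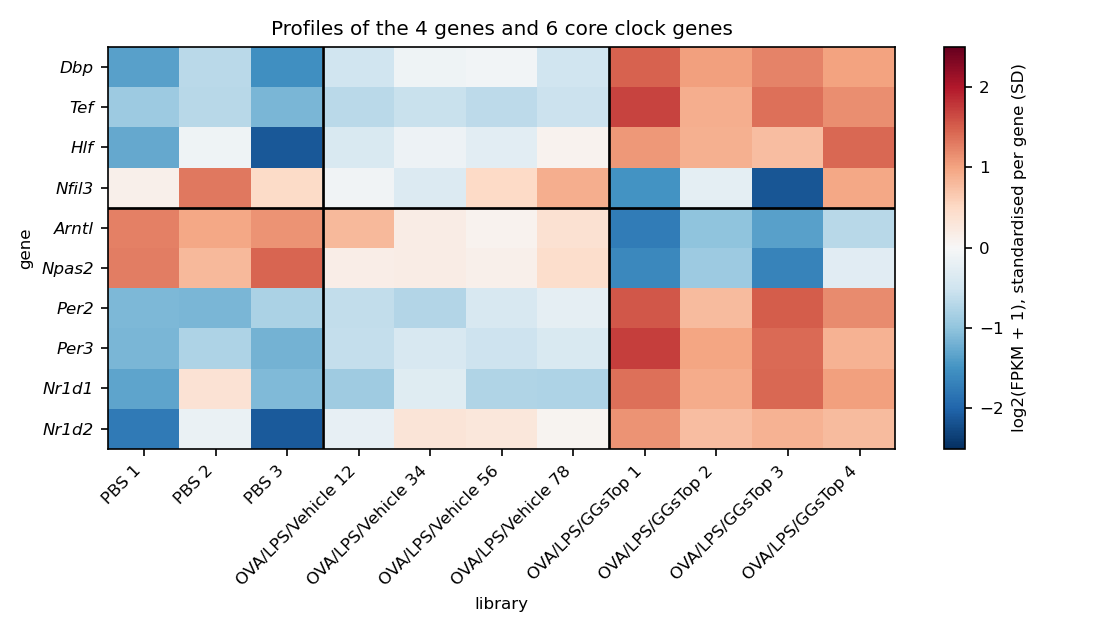
Heat map of log2(FPKM + 1), standardised per gene over the 11 libraries (colour scale in SD), for the 4 genes (top) and 6 core clock genes (bottom), with lines between the groups. Dbp, Tef and Hlf are high in the OVA/LPS/GGsTop libraries together with Per2, Per3, Nr1d1 and Nr1d2, where Arntl and Npas2 are low.

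The lists that follow were chosen with earlier results of these data known, so their calls, above all between OVA/LPS/GGsTop and OVA/LPS/Vehicle, are not independent support. The core clock list held 22 genes, of which Arntl2, Rorb and Fbxl21 were under the filter and 19 were tested. Between OVA/LPS/GGsTop and OVA/LPS/Vehicle, 7 were called higher and 3 lower, with a median log2 difference of 0.30 beside 0.03 over all genes. Of all genes tested, 6.9% were called higher and 1.81% lower in this comparison. The 7 were Per1, Per2, Per3, Cry2, Nr1d1, Bhlhe40 and Csnk1d, which include negative arms of the loop, and the 3 were its activators Arntl, Clock and Npas2. Per2 was at 33.4, 19.9, 32.6 and 25.9 FPKM in OVA/LPS/GGsTop 1 to 4 and at 7.48, 6.83, 8.74 and 9.96 FPKM in OVA/LPS/Vehicle 12, 34, 56 and 78. Its log2 difference was 1.63 (SE 0.17, limma adjusted p = 0.00263), and libraries 1 and 3 were again the higher ones of the GGsTop group. Per3 was at 18.9, 11.7, 15.4 and 10.9 against 3.91, 4.54, 4.17 and 4.59 FPKM, with a difference of 1.49 (SE 0.16, limma adjusted p = 0.00263). Nr1d1, the REV-ERBα gene, was at 55.7, 39.6, 57.7 and 42.7 against 9.73, 15.4, 10.8 and 10.6 FPKM.

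Arntl, the partner in the complex that drives Dbp, was at 1.17, 1.90, 1.54 and 2.26 FPKM in OVA/LPS/GGsTop 1 to 4 and at 4.81, 3.59, 3.40 and 3.95 FPKM in OVA/LPS/Vehicle 12, 34, 56 and 78, with no overlap. Its log2 difference was −0.87 (SE 0.14, limma adjusted p = 0.0141). Npas2 was at 0.859, 1.63, 0.807 and 2.54 against 3.41, 3.42, 3.29 and 3.98 FPKM, a difference of −0.93 (SE 0.20, limma adjusted p = 0.024). The call of Npas2 was lost without OVA/LPS/Vehicle 34, 56 or 78 or OVA/LPS/GGsTop 1 or 3, and that of Arntl without OVA/LPS/GGsTop 1. Nr1d2 stood higher with no overlap, at 33.6 to 44.8 against 15.3 to 23.6 FPKM, but did not pass the test (limma adjusted p = 0.139). Per2, Per3 and Cry2 were called under each of the 20 alternatives, while the count of 10 called genes fell to 3 without OVA/LPS/GGsTop 1, to 4 without OVA/LPS/Vehicle 56, to 5 without OVA/LPS/Vehicle 34 or OVA/LPS/GGsTop 3 and to 6 without OVA/LPS/Vehicle 78. After GC correction 7 were called, without Per1, Clock and Csnk1d.

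Between OVA/LPS/Vehicle and PBS, 4 of the 19 core clock genes were called higher and 4 lower, with a median of 0.01. These shares are near the 15.9% and 22.1% of all genes, so the counts are no result about the list, and single genes are given by their values. Per3 and Nr1d2 rose, by 0.49 (SE 0.17, limma adjusted p = 0.0411) and 1.64 (SE 0.40, limma adjusted p = 0.0109). Arntl and Npas2 fell, by 0.41 (SE 0.15, limma adjusted p = 0.0444) and 0.67 (SE 0.21, limma adjusted p = 0.0305). Clock was also called higher, and Csnk1d and Csnk1e lower, and none of these 3 was called after GC correction, where Clock changed sign. The 4 genes called after that correction were Arntl, Per2, Per3 and Nr1d2. Nr1d1 was at 6.75, 25.8 and 8.13 FPKM in PBS 1, 2 and 3, and Nr1d2 at 3.83, 15.7 and 2.72 FPKM, so PBS 2 stood above the other PBS libraries as it did for Dbp and Hlf. Per2 was at 5.12, 5.04 and 6.58 FPKM, Per3 at 2.53, 3.4 and 2.45, Arntl at 5.89, 5.19 and 5.55 and Npas2 at 6.53, 5.01 and 7.17 FPKM in the same libraries. The count of 8 fell to 1, Csnk1d, without PBS 3, to 3 without PBS 1, to 2 without OVA/LPS/Vehicle 34, to 3 without 56 or 78 and to 5 without 12.

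Between OVA/LPS/GGsTop and PBS, 7 of the 19 were called higher and 2 lower, with a median of 0.17 beside 0.01 over all genes. Of all genes tested, 2.06% were called higher and 0.821% lower here. With the replicate block 4 were called, Arntl, Npas2, Per2 and Per3. Without PBS 1 or OVA/LPS/GGsTop 1 the count was also 4. Per2 was 2.12 higher (SE 0.18, limma adjusted p = 0.000266) and Per3 1.98 (SE 0.17, limma adjusted p = 0.000266). Arntl fell by 1.28 (SE 0.15, limma adjusted p = 0.0027), and these 3 were called under each of the 21 alternatives.

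Other outputs of the clock formed a list of 6 genes, with medians of 0.48, 0.71 and 0.86 in the comparisons of OVA/LPS/GGsTop with OVA/LPS/Vehicle, OVA/LPS/Vehicle with PBS and OVA/LPS/GGsTop with PBS. In the same order, 6.9%, 15.9% and 2.06% of all genes tested were called higher and 1.81%, 22.1% and 0.821% lower. Between OVA/LPS/GGsTop and OVA/LPS/Vehicle, Tspan4, a tetraspanin gene, and Wee1, which encodes a kinase that holds back entry into mitosis, were higher, by 0.91 (SE 0.17) and 0.68 (SE 0.13), both with limma adjusted p = 0.0198. None was called lower, and Lonrf3 was at −0.21 (SE 0.09, limma adjusted p = 0.144). No gene of this list was called without OVA/LPS/Vehicle 34, OVA/LPS/Vehicle 56 or OVA/LPS/GGsTop 1, and 1 was without OVA/LPS/GGsTop 3. Between OVA/LPS/Vehicle and PBS 3 rose, Wee1 by 0.72 (SE 0.14, limma adjusted p = 0.00511), the glucocorticoid-induced gene Tsc22d3 by 1.29 (SE 0.25, limma adjusted p = 0.00525) and Nampt by 0.79 (SE 0.17, limma adjusted p = 0.00776), and without PBS 2 the count was 5. Nampt lost its call after GC correction, at 0.31 (adjusted p = 0.0708). Between OVA/LPS/GGsTop and PBS, Wee1 rose by 1.39 (SE 0.14, limma adjusted p = 0.000896), Tsc22d3 by 1.65 (SE 0.25, limma adjusted p = 0.0128), and Lonrf3 fell by 0.45 (SE 0.10, limma adjusted p = 0.0368). Lonrf3 was not called with the replicate block, at −0.42 (adjusted p = 0.213). Of these 3 genes, Wee1 alone was called without PBS 1, without PBS 3 or without OVA/LPS/GGsTop 1.

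The list of 11 known PAR bZIP targets, mostly from liver and kidney, had 8 genes over the filter, while Nr1i3, Alb and Cyp7a1, the rate-limiting enzyme of bile acid synthesis, were under it. Alas1 and Por, which encodes the reductase that feeds electrons to cytochromes P450, were called higher between OVA/LPS/GGsTop and OVA/LPS/Vehicle and none was called lower. The median of the list was 0.06 beside 0.03 over all genes, of which 6.9% were called higher and 1.81% lower. Alas1 was at 85.4 ± 9.15 against 50.6 ± 5.13 FPKM (SD, n = 4 each), a log2 difference of 0.74 (SE 0.11, limma adjusted p = 0.0126). Por was at 88.0 ± 17.4 against 50.0 ± 5.03 FPKM (SD, n = 4 each), a difference of 0.79 (SE 0.15, limma adjusted p = 0.0204). Pdxk, the pyridoxal kinase gene, was at 0.44 (SE 0.21, limma adjusted p = 0.181). Alas1 lost its call without OVA/LPS/GGsTop 1 (adjusted p = 0.0526). Por lost it after GC correction (0.52, adjusted p = 0.0672) and without OVA/LPS/GGsTop 1 or OVA/LPS/Vehicle 34, 56 or 78. Alas1 was also called between OVA/LPS/Vehicle and PBS, at 0.41 (SE 0.12, limma adjusted p = 0.0222), and between OVA/LPS/GGsTop and PBS, at 1.15 (SE 0.12, limma adjusted p = 0.00142), as the only gene of the list in each, with list medians of 0.15 and 0.30. The first of these calls was lost without PBS 1, PBS 2 or OVA/LPS/Vehicle 34, 56 or 78, and the second was kept under each of the 21 alternatives. Of all genes tested, 15.9% were called higher in the first of these comparisons and 2.06% in the second. In the first, 1 call among 8 genes is therefore no result about the list.

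Of 10 immune genes tied to Nfil3, 7 were under the filter, among them Eomes, Tox and Il5. The medians of the other 3 were −0.31, 0.72 and 0.41 in the same order of comparisons. In that order, 6.9%, 15.9% and 2.06% of all genes tested were called higher and 1.81%, 22.1% and 0.821% lower. Id2, which is needed by innate lymphoid cells, was lower in the OVA/LPS/GGsTop than in the OVA/LPS/Vehicle group, by a log2 difference of −0.55 (SE 0.10, limma adjusted p = 0.0186), and Il7r and Il4 were at −0.31 (SE 0.23) and −0.08 (SE 0.23) with limma adjusted p = 0.379 and 0.84. The call of Id2 was lost after GC correction (−0.40, adjusted p = 0.0699) and without OVA/LPS/Vehicle 34 or OVA/LPS/GGsTop 1. The summed markers of natural killer and innate lymphoid cells were at 5.75 to 6.61 FPKM in the GGsTop group and 7.11 to 8.72 FPKM in the vehicle group, with 1 of 4 tested called lower and none at 0, and their part in the level of Id2 or Nfil3 was not tested. Between OVA/LPS/Vehicle and PBS all 3 were called higher, Id2 by 0.44, Il4 by 0.76 and Il7r by 0.72 on the log2 scale, and none of them after GC correction. None of the 3 was called by limma between OVA/LPS/GGsTop and PBS. There 1 had an unadjusted p under 0.05, a threshold at which the share of all genes was not taken.

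Of the 6 C/EBP genes, bZIP factors that can share sites with this family, none was called between OVA/LPS/GGsTop and OVA/LPS/Vehicle by limma, with 2 at an unadjusted p under 0.05 and a median of 0.09. Between OVA/LPS/Vehicle and PBS, Cebpg rose from 12.7 ± 3.04 (SD, n = 3) to 21.0 ± 1.29 (SD, n = 4) FPKM, by 0.71 on the log2 scale (SE 0.14, limma adjusted p = 0.00605), a call kept under each of the 19 alternatives, though at 0.38 after GC correction. The list median was 0.31. With 15.9% of all genes called higher there, 1 call among 6 genes is no result about the list. None was called by limma between OVA/LPS/GGsTop and PBS, with 4 at an unadjusted p under 0.05 and a median of 0.40. The share of all genes at an unadjusted p under 0.05 was not taken, so nothing is read from these unadjusted counts.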

How the data were processed

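Libraries were grouped by their labels. The authors deposited FPKM, 1 column per library, made per the submitters' processing notes with cutadapt 1.15, HISAT2 2.0.5 and HTSeq 0.9.1 on mm39. Because the deposited values are FPKM, a test on the log scale replaced the count-based test of the study. limma 3.58.1 (R 4.3.3) was fitted to log2(FPKM + 1) of the 11 libraries together, for genes averaging 0.5 FPKM or more, with a mean-variance trend. Its p-values were two-sided with Benjamini-Hochberg adjustment, and a gene was called under 0.05. This step was tested on simulated data. Of 21899 gene identifiers, 21795 matched a symbol in the GRCm38 annotation. The product of FPKM and GENCODE M21 exon length was a whole number of fragments in every library for 97.8% of genes, within 0.05, so fragment numbers could be given. Promoters come from RefSeq on GRCm38.p6, another build than that of the reads. Other steps used pandas 2.3.3 and numpy 2.4.6, with matplotlib 3.10.9 for the figures, in Python 3.11.15.

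The 4 genes and all gene lists were chosen with earlier results of these data known. The named genes were the 4 genes, 6 core clock genes, up to 3 genes of each other list by p-value in the comparison, and 5 genes of the most similar profile per gene. Other core clock genes are named as those called, and the result of 1 gene is not reported here. Same-numbered PBS and OVA/LPS/GGsTop libraries deviated together, with correlations of 0.367, 0.427 and 0.428, so the replicate numbers were taken to pair them. The labels and methods state no such pairing. OVA/LPS/GGsTop 4 has no PBS library of its number, so in fits with this block it does not enter the difference between the groups. Not every library correlated best with its own number, since PBS 2 with OVA/LPS/GGsTop 4 gave 0.637 and PBS 1 with OVA/LPS/GGsTop 3 gave 0.457. Alternatives were other pseudocounts, filters and scalings, no trend, array weights, the 2 groups alone, a GC correction by a spline with 5 degrees of freedom, the replicate block, and each library left out. limma voom on recovered fragments, the block with GC correction and removal of mitochondrial genes were chosen after seeing the data.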

Additional observations from a re-analysis of the deposited data

How the results depend on the processing

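Of 360 alternative values, 309 were classed as unchanged, 5 were weaker, 8 stronger, 35 moved and 3 changed sign. For Dbp, Tef, Hlf and Nfil3, unchanged means the same direction and side of the threshold, or a move smaller than the spread between replicates. The 360 values also include counts of called core clock and clock output genes. These could differ from the main count and still be classed as unchanged, as with 10 core clock calls between the OVA/LPS groups and 7 after GC correction. The 309 is therefore not a number of kept calls. Dbp kept its call against PBS in both groups, and Tef in the GGsTop group, under every alternative run. Apart from a gene missing from a fit, the cause of the changes below was not tested.

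Hlf between OVA/LPS/GGsTop and OVA/LPS/Vehicle was 0.91 with a pseudocount of 0.1, 0.88 with GC correction, 0.93 with voom and 0.89 with voom and size factors, and 0.65 to 0.78 with 1 library left out. Hlf between OVA/LPS/Vehicle and PBS passed at 0.62 with equal medians, 0.67 with array weights, 0.74 without mitochondrial genes and 1.08 and 1.10 with voom without and with size factors (0.32 to 0.92 with 1 library left out). Tef passed there at 0.38 without mitochondrial genes, which moved the median of all genes to 0.12, and an equal FPKM total moved it to −0.15 there and to 0.11 between the OVA/LPS groups. Nfil3 changed sign there, to 0.03 with array weights, 0.09 with GC correction and 0.00 without mitochondrial genes. Between OVA/LPS/GGsTop and PBS, Hlf lost its call at 1.33 with only the 2 groups and at 1.25 with the replicate block, and ran from 1.04 to 1.65 with 1 library left out. Nfil3 passed at −0.67 with the replicate block and GC correction, a fit that leaves OVA/LPS/GGsTop 4 out of the difference. The replicate block changed no other call of the 4 genes.

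Core clock calls were 16 with array weights between the OVA/LPS groups (3 to 10 with 1 library left out). Against PBS they were 5 with no filter and 4 with GC correction in the vehicle group (1 to 10), and 3 with only the 2 groups and 4 with the replicate block in the GGsTop group (4 to 10). Clock output calls were 1 with voom, with or without size factors, between the OVA/LPS groups (0 to 2). The voom fits held only genes with whole fragment numbers, and Tspan4 was not among them, so it could not be called there. Against PBS, clock output calls were 5 with an equal FPKM total and 6 with array weights in the vehicle group (3 to 5), and 5 with array weights in the GGsTop group (1 to 4). Over all genes, the calls were 1220, 5327 and 403 in the 3 comparisons and ran from 24 to 5214, from 3001 to 7916 and from 29 to 2557. Values under 1 FPKM of Dbp and Hlf in PBS rest on few fragments, and their log2 differences grow with a smaller pseudocount.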
